A study of Mus musculus with 11 samples.

Results

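Genes of glycolysis and of the response to low oxygen were followed across mouse embryonic fibroblasts that differ in the number of intact copies of Actb, the gene of cytoplasmic β-actin. The set was fixed by symbol, by a choice made with earlier results of these data known. It holds 37 of the 46469 gene symbols in the tables and splits by role into 17 glycolytic enzymes, 4 regulators of glycolytic and pyruvate flux, 5 components of oxygen sensing and 11 hypoxia targets. All 37 were found, and 36 were expressed highly enough to be tested. The cells came from BALB/c embryos of day 10.5 and carried Actb +/+ (WT, 4 libraries), Actb +/- (Het, 4 libraries) or Actb -/- (KO, 3 libraries). They grew in high glucose medium with serum, and poly(A) RNA was sequenced. No drug or low oxygen treatment is named in the labels, so the genotype is the only labelled difference between groups. Whether the numbered replicates stem from separate embryos or cultures is not in the labels, and p-values thus measure only the spread between these libraries, which may be technical.

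Glycolysis turns glucose into pyruvate in the cytosol. Lactate dehydrogenase then converts pyruvate to lactate, while the pyruvate dehydrogenase complex sends it to the mitochondria unless a pyruvate dehydrogenase kinase switches that complex off. The hypoxia-inducible factors (HIF) are transcription factors made of an oxygen-labile α subunit and the stable partner ARNT. When oxygen is plentiful, prolyl hydroxylases of the EGLN family mark the α subunit for destruction through the VHL ubiquitin ligase. When oxygen is scarce, HIF binds short RCGTG sites and raises genes of glycolysis, mitophagy, matrix hydroxylation and vessel growth. Much of HIF regulation acts on the protein, which RNA levels do not show. Fibroblasts grown in rich medium use glycolysis heavily, and actin filaments are known to bind several glycolytic enzymes, aldolase among them.

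Depth relative to WT 1, read from the most common ratio between values under 0.3 FPKM, ran from 60.7% in WT 3 to 125% in WT 4. The targeted gene Actb measured 1325 ± 199.6 FPKM (fragments scaled to transcript length and library size) in WT, 837 ± 24.0 in Het and 45.8 ± 1.27 in KO (SD, n = 4, 4 and 3), in the order of the labels. The 6 fibroblast markers summed to 1273 to 1707 FPKM in WT, 2023 to 2322 in Het and 2805 to 3486 in KO, but Thy1 and Pdgfra were near 0 in WT (0.0248 and 0.212 FPKM). Among them Col1a2 and Pdgfra were highest in Het, at 6.86, 193 and 11.5 FPKM for Col1a2 and 4.33 in Het and 0.964 in KO for Pdgfra. The summed smooth muscle markers Acta2, Myh11, Cnn1 and Des went from 54.5 to 60.9 FPKM in WT to 195 to 209 in Het and 6307 to 7071 in KO. Nearly all of this was Acta2, with 56.1, 201 and 6541 FPKM, and in KO also Cnn1 (266). Myh11 stayed below 1 FPKM in every library, and Des averaged 0.442, 1.15 and 1.22 FPKM. The part of these markers in the results was not tested. Epithelial markers summed to 29.0 to 70.4 FPKM in WT and less than the highest of these in Het and KO. Neural markers summed to at most 29.3 FPKM, macrophage and blood markers to at most 4.58 with the leukocyte gene Ptprc at 0 in every library, and endothelial markers to at most 0.534. In bulk RNA, fewer cells of a type and less RNA per cell cannot be told apart.

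The promoters are shown because the HIF core site RCGTG can be read in them directly. The 250 bases before the annotated start were searched for ACGTG and GCGTG on both strands, and a palindromic CACGTG thus counts on each strand. RefSeq promoters on GRCm38.p6 were found for 34 of the 37 genes, with none given for Epas1, Bnip3l and Ndrg1. ACGTG stood in the promoters of 8 of 9 hypoxia targets and 7 of 17 glycolytic enzymes, and in 25.3% of all tested genes with a promoter. GCGTG stood in 7 of 9 hypoxia targets, in 10 of 17 enzymes and in 50.9% of all tested genes with a promoter. Genes with several starts were counted once if any start had the letters. Adm was the hypoxia target without ACGTG in this window, and it holds 2 copies of GCGTG. A match describes these letters and does not show that HIF binds there. Shown 5′ to 3′ with the matched letters in capitals are Ldha and 4 hypoxia targets. Ldha has the most ACGTG matches among the enzymes. Of the 4 targets, Bnip3 and Adm rose, Egln3 fell and Ddit4 did not pass in Het against WT. All 4 rose in KO against WT. Ero1l, which fell in both, holds 1 ACGTG and 2 GCGTG and is not shown.
Ldha, chr7:46845554-46845803, plus strand: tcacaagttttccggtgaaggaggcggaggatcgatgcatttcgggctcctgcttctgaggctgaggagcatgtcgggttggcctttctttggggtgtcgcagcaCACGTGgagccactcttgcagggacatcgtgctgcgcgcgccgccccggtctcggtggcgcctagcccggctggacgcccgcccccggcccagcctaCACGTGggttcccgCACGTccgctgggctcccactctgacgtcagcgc
Bnip3, chr7:138909507-138909756, minus strand: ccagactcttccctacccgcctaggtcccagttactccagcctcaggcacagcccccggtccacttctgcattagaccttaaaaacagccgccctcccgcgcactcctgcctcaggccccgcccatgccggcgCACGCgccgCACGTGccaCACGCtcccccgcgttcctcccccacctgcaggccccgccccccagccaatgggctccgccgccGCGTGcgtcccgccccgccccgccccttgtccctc
Ddit4, chr10:59951771-59952020, minus strand: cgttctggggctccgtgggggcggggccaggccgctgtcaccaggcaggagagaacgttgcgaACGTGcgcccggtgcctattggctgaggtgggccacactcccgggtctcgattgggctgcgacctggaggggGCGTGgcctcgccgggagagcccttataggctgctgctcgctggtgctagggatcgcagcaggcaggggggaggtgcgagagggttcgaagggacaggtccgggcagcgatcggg
Egln3, chr12:54203875-54204124, minus strand: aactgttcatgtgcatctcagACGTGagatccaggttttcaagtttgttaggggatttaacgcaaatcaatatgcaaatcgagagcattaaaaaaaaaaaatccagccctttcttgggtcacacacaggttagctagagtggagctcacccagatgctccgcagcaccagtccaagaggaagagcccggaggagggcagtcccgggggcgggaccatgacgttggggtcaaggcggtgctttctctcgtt
Adm, chr7:110627407-110627656, plus strand: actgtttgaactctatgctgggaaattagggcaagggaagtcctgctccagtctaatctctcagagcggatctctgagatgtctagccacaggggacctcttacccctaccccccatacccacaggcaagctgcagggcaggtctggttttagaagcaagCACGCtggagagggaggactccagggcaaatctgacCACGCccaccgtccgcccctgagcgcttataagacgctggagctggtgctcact

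Loss of β-actin came with a mixed change in this set. In KO against WT, 14 of the 36 tested genes rose and 9 fell, or 23 genes in either direction (limma, adjusted p under 0.05). Of all 14948 genes tested, 23.3% rose, 23.8% fell and 47.1% did either. In Het against WT, 12 rose and 9 fell, or 21 genes. Of all genes tested, 21.7% rose, 22.1% fell and 43.8% did either. In both comparisons the share called was above that of all genes. The members were chosen with earlier results of these data known, so this excess is a description of the set only. The libraries of KO and WT did not overlap for 21 of the 36 genes, beside 46.4% of all genes, and those of Het and WT for 20, beside 39.5%. Adm, Car9 and Epas1 passed the filter on low values only through the groups in which they are high, so the counts are descriptions. The hypoxia targets had a median log2 difference of 0.56 in KO against WT and 0.08 in Het against WT. Adm and Car9 are among them, so these medians are descriptions too. Without them the middle value in KO against WT is that of Bnip3, 0.25. The glycolytic enzymes had medians of 0.15 and 0.16, and all genes tested 0.01 and 0.01. Differences are given in log2(FPKM + 1), a scale on which low genes change less than their FPKM do.

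**Figure D1:**
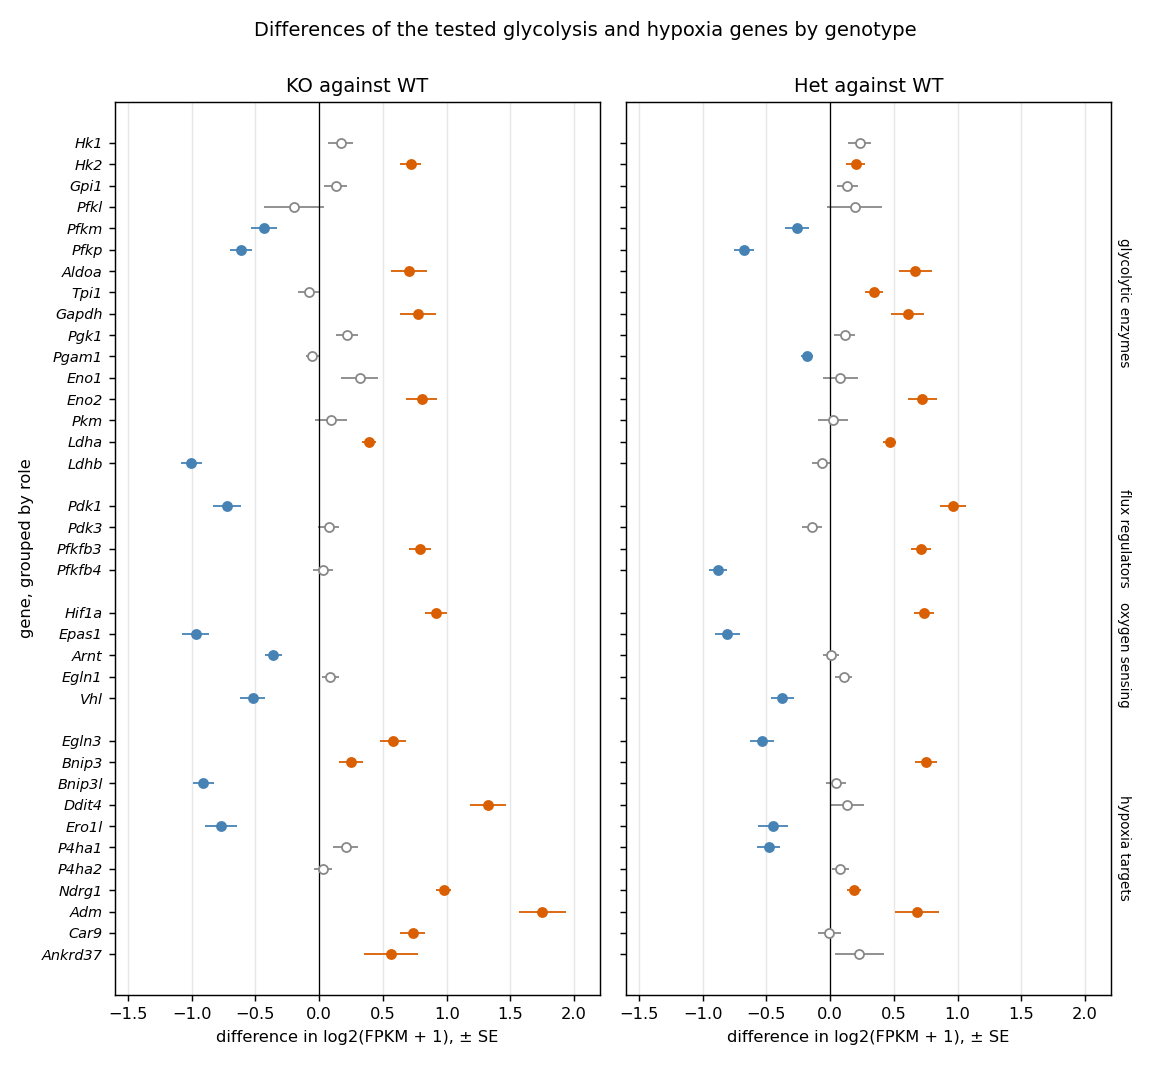
Difference in log2(FPKM + 1) with its standard error for the 36 tested genes, grouped by role, in KO against WT (left) and Het against WT (right). Filled orange points rose and filled blue points fell at an adjusted p under 0.05, open grey points did not pass. Adm reaches 1.75 in KO, Ldhb -1.0 in KO and Pdk1 0.96 in Het.

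Among the glycolytic enzymes, 5 of 16 tested rose and 3 fell in KO against WT, and 6 rose and 3 fell in Het against WT. Of all genes, 47.1% were called in KO and 43.8% in Het. Beside these shares, the 8 of 16 enzymes called in KO are near the background. The 9 of 16 in Het include Hk2 and Pfkm, which each lost the call under 13 of 23 alternatives. Thus 16 genes are too few to set the Het count apart from the background. With the GC correction described below, more enzymes passed in KO, as did more of all genes. The cause was not tested. Aldoa, Gapdh, Eno2, Ldha and Hk2 rose in both genotypes, Pfkp and Pfkm fell in both, Ldhb fell in KO, and Tpi1 rose and Pgam1 fell in Het. Hk1, Gpi1, Pfkl, Pgk1, Eno1 and Pkm passed in neither. Hexokinase Hk2, the inducible enzyme that traps glucose in the cell, measured 4.13 ± 0.466 FPKM in WT, 4.88 ± 0.0993 in Het and 7.40 ± 0.299 in KO (SD). It rose in KO (0.72 ± 0.08 SE, adjusted p = 3.13e-05). Its Het difference (0.20 ± 0.07 SE, adjusted p = 0.0469) lost the call under 13 of 23 alternatives, among them each single Het or KO library left out. Hk1, the constitutive hexokinase, stood at 36.3, 42.6 and 40.8 FPKM in WT, Het and KO without passing. Gpi1, which isomerises glucose 6-phosphate, did not pass either (0.13 in KO, 0.13 in Het).

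Phosphofructokinase commits sugar to glycolysis, and its 3 genes encode subunits named after platelet (Pfkp), muscle (Pfkm) and liver (Pfkl). Pfkp (gene31731, chromosome 13, 6579874 to 6648789 on GRCm38) measured 22.7, 23.0, 22.7 and 27.4 FPKM in WT 1 to 4, 14.5, 13.8, 16.0 and 14.0 in Het 1 to 4, and 16.6, 14.0 and 15.2 in KO 1, 3 and 4. All WT libraries were above all Het and KO libraries. It fell in KO (-0.61 ± 0.09 SE, adjusted p = 0.000155) and in Het (-0.68 ± 0.08 SE, adjusted p = 5.6e-05). Pfkm fell in KO (-0.43 ± 0.10 SE, adjusted p = 0.00472), and its Het difference (-0.26 ± 0.09 SE, adjusted p = 0.0462) lost the call under 13 of 23 alternatives. Pfkl did not pass in either comparison, and its WT libraries alone ran from 30.5 to 68.3 FPKM.

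Aldolase A (Aldoa), which splits the sugar into trioses, measured 136, 193, 175 and 228 FPKM in WT 1 to 4, 284, 269.7, 289 and 304 in Het 1 to 4, and 272, 293 and 319.7 in KO 1, 3 and 4. Every Het and KO library lay above every WT library. Aldoa rose by 0.71 in KO (SE 0.14, adjusted p = 0.00181) and by 0.67 in Het (SE 0.13, adjusted p = 0.00183). The brain-type gene Aldoc was too low to test, at 0.321 to 0.595 FPKM in WT, 0.392 to 0.802 in Het and 0.205 to 0.453 in KO. Triose phosphate isomerase (Tpi1, gene15867, chromosome 6, 124810592 to 124814296), which interconverts the trioses, measured 317, 377, 358 and 401 FPKM in WT 1 to 4, 452, 447, 465 and 474 in Het 1 to 4, and 332, 327 and 366 in KO 1, 3 and 4. The Het libraries stood above all others and KO overlapped WT. Tpi1 rose in Het (0.34 ± 0.07 SE, adjusted p = 0.00326) and did not pass in KO (-0.08 ± 0.08 SE, adjusted p = 0.419).

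Gapdh, the triose dehydrogenase often used as a reference gene, was not level across genotypes. It measured 234, 319, 283 and 385 FPKM in WT 1 to 4, 425, 449, 474 and 488 in Het 1 to 4, and 467, 538 and 544 in KO 1, 3 and 4. Each Het and KO library exceeded each WT library, though WT itself spread widely. The difference was 0.78 ± 0.14 SE, adjusted p = 0.000943 in KO and 0.61 ± 0.13 SE, adjusted p = 0.00316 in Het. Phosphoglycerate kinase (Pgk1) did not pass (0.22 in KO and 0.11 in Het), and the mutase Pgam1 fell in Het (-0.18 ± 0.05 SE, adjusted p = 0.00974, beside -0.06 in KO). The difference of Pgam1 between KO and Het was 0.13 ± 0.05 SE, adjusted p = 0.0679, and so not called.

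Enolase makes phosphoenolpyruvate. The neuronal form Eno2 measured 3.62, 4.62, 3.77 and 5.61 FPKM in WT 1 to 4, 8.11, 8.27, 7.23 and 7.73 in Het 1 to 4, and 8.45, 7.42 and 9.23 in KO 1, 3 and 4. All Het and KO libraries exceeded all WT libraries, and Eno2 rose in KO (0.80 ± 0.12 SE, adjusted p = 0.000313) and Het (0.72 ± 0.11 SE, adjusted p = 0.000475). The ubiquitous Eno1, at 488, 507 and 598 FPKM in WT, Het and KO, did not pass (0.32 in KO and 0.08 in Het). Its level is a sum of a chromosome 4 locus and a near-identical alternate sequence, between which the split of reads is uncertain. Pyruvate kinase (Pkm), the most abundant member, was at 653 ± 118, 656 ± 23.6 and 690.0 ± 58.5 FPKM (SD), with differences of 0.09 and 0.02 that did not pass.

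The lactate dehydrogenases parted. Ldha, whose subunit favours lactate production, measured 264, 290.5, 285 and 294 FPKM in WT 1 to 4, 393, 402, 384 and 390.1 in Het 1 to 4, and 362, 370.3 and 385 in KO 1, 3 and 4. Every Het and KO library was above every WT library, and Ldha rose by 0.39 in KO (SE 0.05, adjusted p = 0.000142) and by 0.47 in Het (SE 0.05, adjusted p = 2.9e-05). Ldhb (gene16263, chromosome 6, 142490249 to 142507957), whose subunit favours the reverse reaction, measured 26.3, 23.2, 29.7 and 24.4 FPKM in WT 1 to 4, 24.3, 24.8, 25.2 and 24.0 in Het 1 to 4, and 11.4, 12.6 and 13.1 in KO 1, 3 and 4. The KO libraries lay far below the rest, and Het lay within the range of WT. Ldhb fell in KO (-1.0 ± 0.08 SE, adjusted p = 2.87e-06) and did not pass in Het (-0.07 ± 0.08 SE, adjusted p = 0.519). KO against Het gave -0.94 ± 0.08 SE, adjusted p = 5.54e-06.

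The enzymes also moved among replicates. WT 4 was highest and WT 1 lowest of the WT libraries for 12 of 16 enzymes, against 23.2% of all genes tested and 1 of 11 hypoxia targets. Over 13776 genes, the deviation of a library from its group mean correlated with transcript GC content at -0.516 in WT 1 and 0.545 in WT 4, as a description across genes that share these libraries. This correlation ran from -0.281 in Het 2 to 0.245 in Het 4, and from -0.245 in KO 1 to 0.297 in KO 4. The median GC content was 53.0% for the enzymes, 50.7% for the hypoxia targets and 49.7% for all genes tested. With each library corrected for GC, an alternative chosen after seeing the data, the differences in KO against WT were 0.56 for Aldoa, 0.72 for Gapdh and 0.37 for Ldha. Enzymes not called in KO without the correction also passed with it. Pfkl (-0.35), Tpi1 (-0.16) and Pgam1 (-0.11) fell, and Eno1 (0.16) and Pgk1 (0.24) rose. No enzyme lost its call in KO. More of all genes were called in KO as well, so the background share without the correction does not apply to this fit. Several members of the pathway have processed pseudogenes in the mouse genome, Gapdh among them, and how the authors' counting split such reads is not given in the sources used here.

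**Figure D2:**
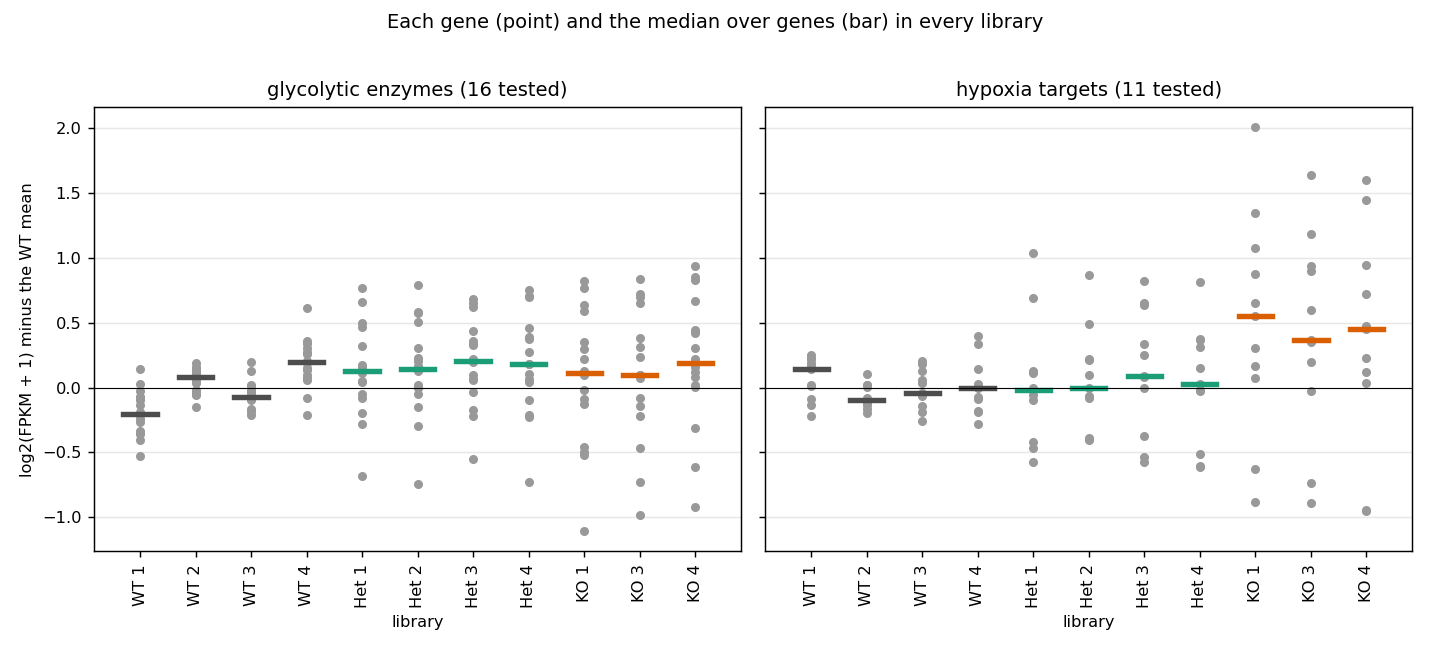
Level of each tested gene (grey points) as log2(FPKM + 1) minus its WT mean in every library, for the 16 glycolytic enzymes (left) and 11 hypoxia targets (right), with the median over genes as a bar coloured by genotype. The enzyme medians run from -0.20 in WT 1 to 0.20 in WT 4, a span that holds all Het and KO medians but that of Het 3 (0.21). The hypoxia target medians of KO, 0.37 to 0.55, lie above all WT and Het medians. They include Adm and Car9, which passed the filter through groups in which they are high.

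Among the 4 regulators of flux, 1 rose and 1 fell in KO and 2 rose and 1 fell in Het. The share called over all genes tested was 47.1% in KO and 43.8% in Het. The largest difference between KO and Het in the whole set was that of Pdk1. Pdk1, a HIF-inducible kinase that shuts off pyruvate dehydrogenase (gene3874, chromosome 2, 71873218 to 71903858), measured 2.95, 2.70, 3.52 and 2.73 FPKM in WT 1 to 4, 6.44, 6.77, 7.40 and 6.32 in Het 1 to 4, and 1.09, 1.40 and 1.75 in KO 1, 3 and 4. Het was highest and KO lowest, with no overlap between any of the groups. Pdk1 rose in Het (0.96 ± 0.10 SE, adjusted p = 2.47e-05) and fell in KO (-0.72 ± 0.11 SE, adjusted p = 0.000277). The difference between KO and Het was -1.69 ± 0.11 SE, adjusted p = 5.53e-07. Pfkfb4, a bifunctional enzyme that makes and breaks a fructose bisphosphate that activates phosphofructokinase (gene24356, chromosome 9, 108988033 to 109032236), went the other way in Het. It measured 8.41, 9.86, 9.09 and 10.5 FPKM in WT 1 to 4, 4.78, 4.92, 4.37 and 4.60 in Het 1 to 4, and 9.69, 9.57 and 9.73 in KO 1, 3 and 4. The Het libraries were below all others, and WT and KO overlapped. Pfkfb4 fell in Het (-0.88 ± 0.07 SE, adjusted p = 3.47e-06), did not pass in KO (0.03 ± 0.08 SE, adjusted p = 0.764) and was higher in KO than in Het (0.91 ± 0.08 SE, adjusted p = 4.14e-06). Its relative Pfkfb3, a strong producer of the same activator, measured 4.03, 4.46, 4.76 and 4.82 FPKM in WT 1 to 4, 8.14, 9.07, 7.81 and 7.16 in Het 1 to 4, and 8.83, 8.10 and 8.68 in KO 1, 3 and 4. Het and KO libraries all exceeded WT, and Pfkfb3 rose by 0.79 in KO (SE 0.09, adjusted p = 2.45e-05) and 0.71 in Het (SE 0.08, adjusted p = 3.84e-05). Pdk3, the most abundant kinase of its family in WT, did not pass in either (0.07 and -0.14).

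In the oxygen sensing group, 1 of 5 genes rose and 3 fell in KO, and 1 rose and 2 fell in Het. The share called over all genes tested was 47.1% in KO and 43.8% in Het, and 5 genes are too few to set apart from it. Hif1a, which encodes the α subunit of HIF-1 (gene30561, chromosome 12, 73901329 to 73947530), measured 44.4, 37.8, 42.3 and 35.0 FPKM in WT 1 to 4, 67.5, 71.0, 66.7 and 62.5 in Het 1 to 4, and 78.8, 78 and 70.7 in KO 1, 3 and 4. All Het and KO libraries stood above all WT libraries. Hif1a rose in KO (0.92 ± 0.08 SE, adjusted p = 6.95e-06) and in Het (0.74 ± 0.08 SE, adjusted p = 2.53e-05), and KO against Het did not pass (0.18 ± 0.08 SE, adjusted p = 0.11). Epas1, the α subunit of HIF-2, was low throughout and measured 0.836, 1.13, 1.30 and 1.46 FPKM in WT 1 to 4, 0.233, 0.178, 0.308 and 0.248 in Het 1 to 4, and 0.0759, 0.111 and 0.145 in KO 1, 3 and 4. Its WT libraries were above the rest, and the Het libraries were above those of KO. Epas1 fell in KO (-0.97 ± 0.10 SE, adjusted p = 2.38e-05) and Het (-0.81 ± 0.10 SE, adjusted p = 6.52e-05). It passed the filter through WT alone, so these calls are descriptions and rest on a low level. With a pseudocount of 0.1 in place of 1 its differences were -2.60 in KO and -1.90 in Het. Arnt, the shared partner subunit, fell in KO (-0.36 ± 0.07 SE, adjusted p = 0.00107) and measured 25.3, 25.4 and 19.5 FPKM in WT, Het and KO. Vhl, which marks HIF α for destruction, fell in KO (-0.52 ± 0.10 SE, adjusted p = 0.00116) and Het (-0.37 ± 0.09 SE, adjusted p = 0.00627), from 18.6 ± 1.31 FPKM in WT to 12.7 ± 2.09 in KO and 14.1 ± 0.775 in Het (SD). The main oxygen sensor gene Egln1 did not pass, with 0.09 in KO and 0.11 in Het.

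Of the 11 hypoxia targets, 7 rose and 2 fell in KO against WT, and 3 rose and 3 fell in Het against WT. For comparison, 23.3% of all genes tested rose and 23.8% fell in KO, and 21.7% rose and 22.1% fell in Het. Among the 7, Bnip3 and Ankrd37 lost the call under 16 and 12 alternatives. The largest rise was that of Adm, which encodes the vessel-dilating peptide adrenomedullin (gene19373, chromosome 7, 110627669 to 110629819). It measured 0.420, 0.0860, 0 and 0.322 FPKM in WT 1 to 4, 1.46, 0.683, 1.11 and 0.550 in Het 1 to 4, and 3.81, 2.72 and 2.62 in KO 1, 3 and 4, so that WT 3 was listed at 0. The genotypes did not overlap and KO was highest. Adm rose in KO (1.75 ± 0.19 SE, adjusted p = 2.05e-05) and Het (0.68 ± 0.17 SE, adjusted p = 0.00781). It passed the filter through Het and KO alone, so these calls are descriptions. On such low levels the size depends on the pseudocount, and with 0.1 it was 3.62 in KO and 1.97 in Het. Ddit4 (gene25390, chromosome 10, 59949675 to 59951770), whose product REDD1 restrains the growth kinase mTORC1 and also responds to stress other than hypoxia, measured 9.96, 9.76, 9.56 and 13.7 FPKM in WT 1 to 4, 10.2, 10.1, 13.7 and 13.4 in Het 1 to 4, and 28.5, 25.5 and 30.7 in KO 1, 3 and 4. KO stood above all others, and Het overlapped WT. Ddit4 rose in KO (1.33 ± 0.14 SE, adjusted p = 2.42e-05) and did not pass in Het (0.13 ± 0.13 SE, adjusted p = 0.464).

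Ndrg1, a stress-responsive gene induced by hypoxia (gene36611, chromosome 15, 66929318 to 66969641), measured 27.4, 27.6, 26.2 and 27.6 FPKM in WT 1 to 4, 29.8, 31.8, 32.5 and 30.2 in Het 1 to 4, and 58.6, 51.6 and 53.4 in KO 1, 3 and 4. The 3 groups did not overlap, and KO was highest. It rose in KO (0.98 ± 0.06 SE, adjusted p = 2.64e-07), and its rise in Het (0.19 ± 0.05 SE, adjusted p = 0.0168) lost the call without Het 3 (adjusted p = 0.0524). Car9, the surface carbonic anhydrase that is a common marker of hypoxia, stayed low and measured 0.644, 0.647, 0.554 and 0.659 FPKM in WT 1 to 4, 0.523, 0.620, 0.728 and 0.605 in Het 1 to 4, and 1.38, 2.11 and 1.67 in KO 1, 3 and 4. Only the KO libraries reached 1 FPKM, all above every other library. Car9 rose in KO (0.73 ± 0.10 SE, adjusted p = 0.000117, or 1.31 with a pseudocount of 0.1) and did not pass in Het (-0.01 ± 0.09 SE, adjusted p = 0.96). It passed the filter through KO alone, so its call in KO is a description. Egln3, a prolyl hydroxylase that HIF itself induces, measured 6.25, 4.43, 5.47 and 4.91 FPKM in WT 1 to 4, 3.19, 3.76, 3.18 and 3.10 in Het 1 to 4, and 8.81, 8.45 and 7.67 in KO 1, 3 and 4. Het was lowest and KO highest without overlap. Egln3 rose in KO (0.58 ± 0.10 SE, adjusted p = 0.000918) and fell in Het (-0.54 ± 0.10 SE, adjusted p = 0.00109). KO against Het gave 1.11 ± 0.10 SE, adjusted p = 9.16e-06.

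The mitophagy receptors Bnip3 and Bnip3l, related proteins that mark mitochondria for removal, did not share a pattern. Bnip3 measured 12.0, 9.44, 9.86 and 9.49 FPKM in WT 1 to 4, 17, 19.3, 16.3 and 18.6 in Het 1 to 4, and 11.5, 13.2 and 12.1 in KO 1, 3 and 4. Het was above all other libraries, and KO overlapped WT. It rose in Het (0.75 ± 0.09 SE, adjusted p = 5.05e-05), and its rise in KO (0.25 ± 0.09 SE, adjusted p = 0.0486) lost the call under 16 of 23 alternatives. Bnip3l (gene35383, chromosome 14, 66985238 to 67008894) measured 41.0, 34.8, 40.5 and 32.3 FPKM in WT 1 to 4, 40.0, 39.6, 36.9 and 36.3 in Het 1 to 4, and 19.6, 19.5 and 18.6 in KO 1, 3 and 4. KO lay below every other library and Het overlapped WT. Bnip3l fell in KO (-0.91 ± 0.08 SE, adjusted p = 7.45e-06) and did not pass in Het (0.04 ± 0.08 SE, adjusted p = 0.682).

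The last 4 hypoxia targets are P4ha1, P4ha2, Ero1l and Ankrd37. P4ha1, the catalytic subunit of collagen prolyl hydroxylase, measured 57.2, 45.2, 58.0 and 44.7 FPKM in WT 1 to 4, 36.5, 38.1, 34.7 and 35.4 in Het 1 to 4, and 63.0, 58.6 and 55.3 in KO 1, 3 and 4. Het was below all others and KO overlapped WT. It fell in Het (-0.48 ± 0.09 SE, adjusted p = 0.00156) and did not pass in KO (0.21 ± 0.10 SE, adjusted p = 0.11). Its relative P4ha2 did not pass in either, at 25.5, 27.1 and 26.0 FPKM in WT, Het and KO. Ero1l, an oxidase that forms disulfide bonds, fell in KO (-0.77 ± 0.13 SE, adjusted p = 0.000482) and Het (-0.45 ± 0.12 SE, adjusted p = 0.00923), from 25.0 ± 4.17 FPKM in WT to 14.2 ± 1.64 in KO and 17.9 ± 1.37 in Het (SD). Ankrd37, a small HIF target, rose in KO (0.56 ± 0.21 SE, adjusted p = 0.047), with overlapping groups, and lost the call under 12 of 22 alternatives.

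**Figure D3:**
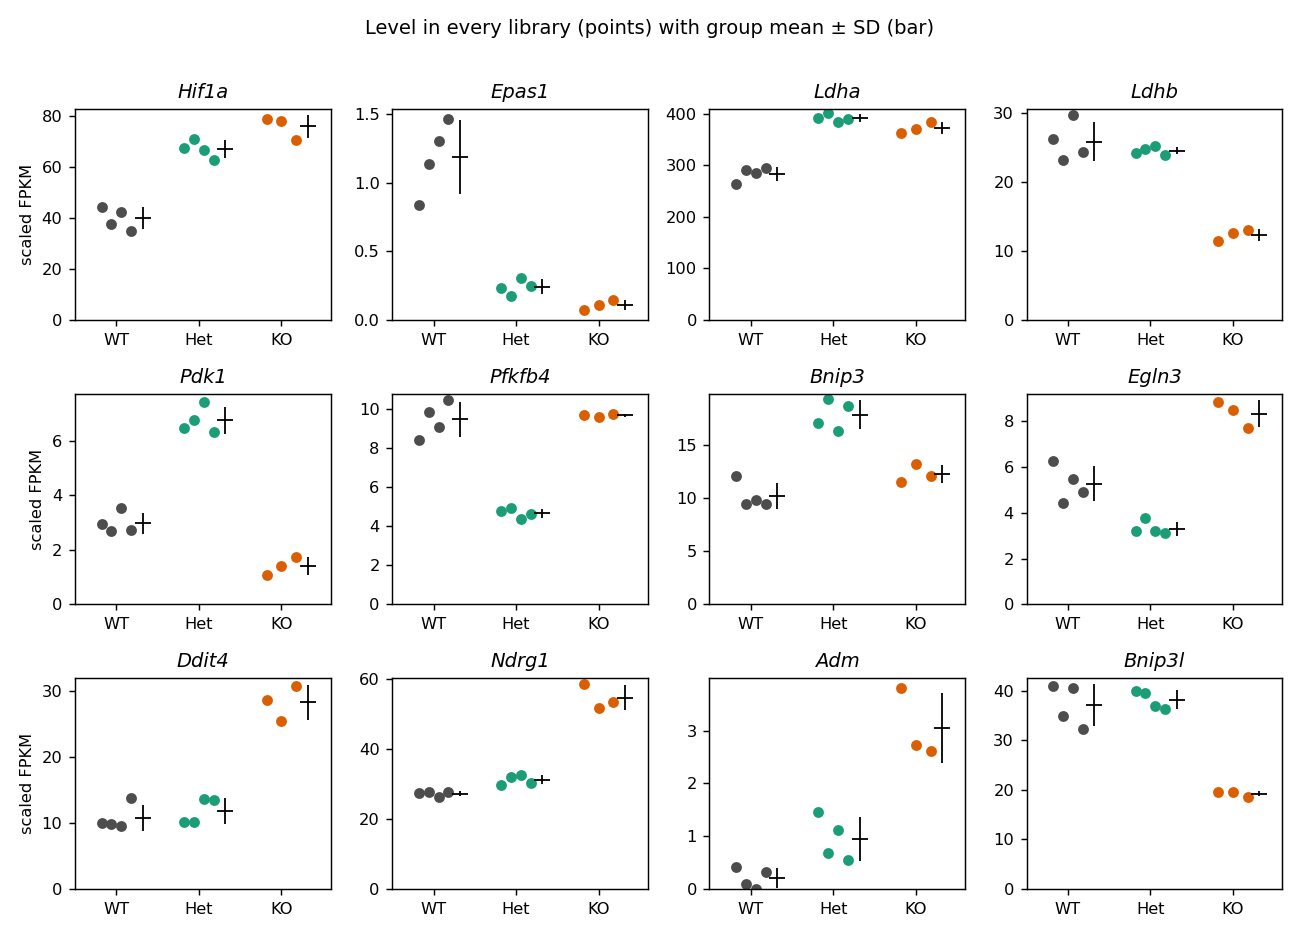
Scaled FPKM in every library (points) for 12 of the genes, with the group mean and SD (bar) beside them, each panel from 0. Hif1a and Ldha are higher in Het and KO than in WT, Ldhb and Bnip3l are lowest in KO, Pdk1 and Bnip3 peak in Het, Pfkfb4 dips in Het, and Ddit4 and Ndrg1 are highest in KO.

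The direct comparison of KO with Het asked what separates cells without an intact Actb gene from cells with 1. In the whole set 8 genes were higher and 6 lower in KO, 14 of 36. Of all genes tested, 22.0% were higher, 22.2% lower and 44.2% either, so the share is near the background. The libraries did not overlap for 20 of 36 genes, beside 54.0% of all genes. The glycolytic enzymes gave few calls: 1 of 16 was higher (Hk2 at 0.51) and 2 were lower (Ldhb at -0.94 and Tpi1 at -0.43), with a median of 0.05. Of the 11 hypoxia targets, 6 were higher in KO and 2 lower, with a median of 0.69 where the median of all genes was 0.01. Those higher were Ddit4 (1.20 ± 0.14 SE, adjusted p = 5.68e-05), Egln3 (1.11), Adm (1.07 ± 0.19 SE, adjusted p = 0.000765), Ndrg1 (0.79 ± 0.06 SE, adjusted p = 1.52e-06), Car9 (0.74 ± 0.10 SE, adjusted p = 0.00012) and P4ha1 (0.69 ± 0.10 SE, adjusted p = 0.000211). Adm and Car9 entered the test through groups in which they are high, so their calls and the median of 0.69 are descriptions. Without them the middle value is that of Ankrd37, 0.33. Bnip3l (-0.95 ± 0.08 SE, adjusted p = 5.84e-06) and Bnip3 (-0.50 ± 0.09 SE, adjusted p = 0.00124) were lower.

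Het did not sit halfway between WT and KO for many of these genes. Against the midpoint of KO and WT on the log2 scale, 11 of 36 genes were higher in Het and 9 lower, 20 in all. Of all genes tested, 21.3% were higher, 22.8% lower and 44.0% either. The largest departures were Pdk1 (1.32 ± 0.09 SE, adjusted p = 9.61e-07), Pfkfb4 (-0.90 ± 0.06 SE, adjusted p = 1.26e-06), Egln3 (-0.82 ± 0.09 SE, adjusted p = 2.31e-05) and Bnip3 (0.63 ± 0.08 SE, adjusted p = 8.04e-05), followed by P4ha1 (-0.59), Ddit4 (-0.53), Bnip3l (0.50), Ldhb (0.44), Tpi1 (0.39) and Car9 (-0.37). In Tpi1, Pdk1 and Bnip3 all Het libraries lay above every WT and KO library, 3 of 36 genes, as did 9.99% of all genes. In Pgam1, Pfkfb4, Egln3 and P4ha1 they lay below every other library, 4 of 36, as did 10.1% of all genes. These shares are near the background. For Ddit4, Bnip3l and Ldhb the departure came with Het at the WT level and KO apart.

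Because FPKM is per length, the share of each isozyme in its family can be set side by side within a library, as a description. Of the RNA of the HIF α genes Hif1a and Epas1, Epas1 made up 2.94% ± 0.886 in WT, 0.362% ± 0.0881 in Het and 0.147% ± 0.0544 in KO (SD, n = 4, 4 and 3). Hif1a was thus nearly all of it in each genotype. Ldhb made up 8.38% ± 1.01 in WT, 5.90% ± 0.170 in Het and 3.21% ± 0.136 in KO (SD, n = 4, 4 and 3) of the lactate dehydrogenase RNA, and the genotypes did not overlap. In the PFKFB family, Pfkfb4 was the leading gene in WT and KO but the lowest in Het, with 40.3% ± 2.17 in WT, 16.7% ± 1.17 in Het and 35.0% ± 1.99 in KO (SD, n = 4, 4 and 3). Pfkfb3 made up 19.3% ± 0.653 in WT, 28.6% ± 1.07 in Het and 30.9% ± 1.48 in KO (SD, n = 4, 4 and 3). The muscle enolase Eno3, which is not one of the 37 genes, took 4.93% ± 0.767 in WT, 3.86% ± 0.196 in Het and 18.4% ± 0.770 in KO (SD, n = 4, 4 and 3) of the enolase RNA. Among the pyruvate dehydrogenase kinases, Pdk4, also outside the set, took 13.9% ± 1.48 in WT, 21.7% ± 0.713 in Het and 43.4% ± 3.75 in KO (SD, n = 4, 4 and 3), while Pdk3 took 74.7% ± 0.839 in WT, 58.9% ± 1.06 in Het and 51.8% ± 2.83 in KO (SD, n = 4, 4 and 3). Pdk1 had its highest share in Het, at 5.58% ± 0.567 in WT, 11.1% ± 0.732 in Het and 1.77% ± 0.532 in KO (SD, n = 4, 4 and 3). Hk2 took 10.3% ± 1.03 in WT, 10.3% ± 0.555 in Het and 15.4% ± 1.56 in KO (SD, n = 4, 4 and 3) of the hexokinase RNA of Hk1 and Hk2.

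**Figure D4:**
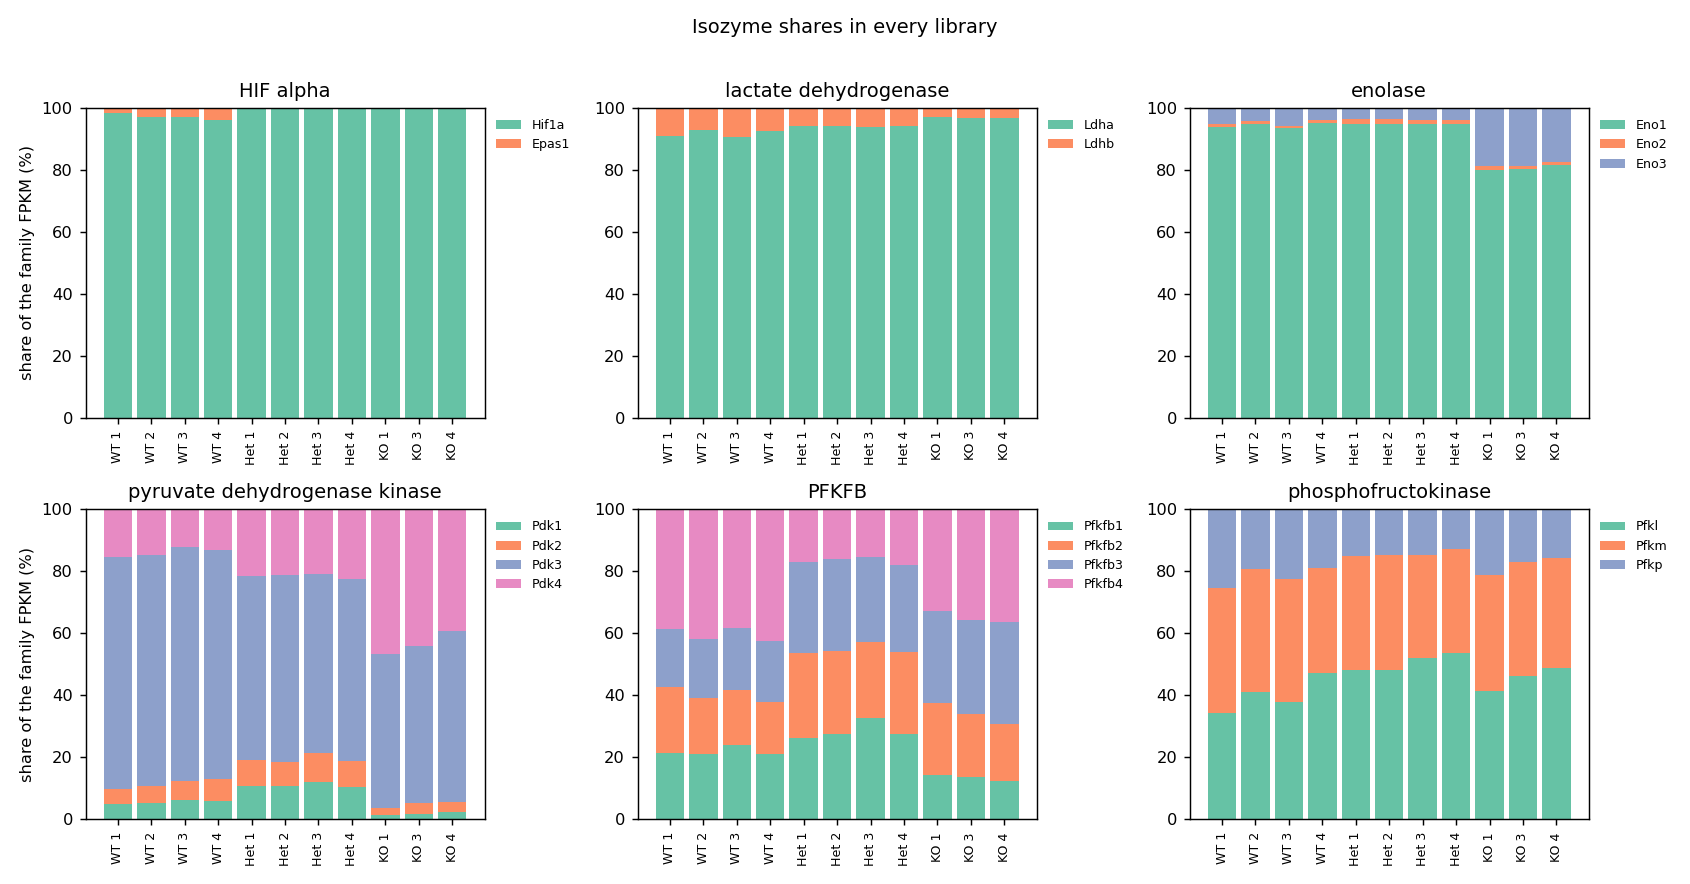
Share of each gene in the summed FPKM of its family, in percent, for every library and 6 families, with genes stacked to 100%. Ldhb shrinks from WT to Het to KO, Eno3 and Pdk4 widen in KO, and Pfkfb4 narrows in Het.

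Other genes of the pathways, taken from lists of 58 symbols of which 57 were found and 43 tested, were read in the same fit. For the counts that follow, 23.3% of all genes tested rose and 23.8% fell in KO, and 21.7% rose and 22.1% fell in Het. Of 7 tested carriers of glucose, lactate and pyruvate, 2 rose and 3 fell in KO and 0 rose and 4 fell in Het. The lactate exporter gene Slc16a3 (MCT4), itself a HIF target, went from 10.3 ± 4.09 FPKM in WT to 3.90 ± 0.365 in Het and 0.415 ± 0.0684 in KO (SD), and fell in both (-2.93 ± 0.23 SE, adjusted p = 1.92e-06 in KO and -1.14 ± 0.21 SE, adjusted p = 0.00128 in Het). Its KO libraries were at most 0.494 FPKM, so Slc16a3 passed the filter through WT and Het. Its call in KO is thus a description, and the size rests on a low level. The glucose transporter gene Slc2a1 (GLUT1) went from 15.3 ± 5.65 to 33.2 ± 4.45 FPKM and rose in KO (1.13 ± 0.23 SE, adjusted p = 0.00214). In Het it did not pass (0.39 ± 0.21 SE, adjusted p = 0.171). The mitochondrial pyruvate carrier genes Mpc1 and Mpc2 fell in KO (-0.48 and -0.59) and in Het (-0.71 and -0.38). Slc16a1 (MCT1), which carries lactate both ways, fell in Het (-0.71). Slc16a7 (MCT2) was at 0.256, 0.102 and 1.35 FPKM in WT, Het and KO. It passed the filter through KO alone, so its call in KO (0.91) is a description.

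Of 8 tested tissue-restricted isozymes and side enzymes, 3 rose and 1 fell in KO and 4 rose and 3 fell in Het. Eno3 rose from 24.9 ± 2.38 to 136 ± 4.09 FPKM in KO (2.41 ± 0.09 SE, adjusted p = 5.82e-09), and Pdk4 from 7.45 ± 1.25 to 35.3 ± 5.35 (2.1 ± 0.12 SE, adjusted p = 2.16e-07). Pfkfb2 rose (0.33) and Pfkfb1 fell (-0.38). In Het, Pdk4 (0.76), Pfkfb2 (0.66) and Pdk2 (0.58) rose, and Adpgk, an ADP-dependent glucokinase, fell (-0.56). The pyruvate dehydrogenase complex and its phosphatases had 7 tested genes, of which 2 rose and 4 fell in KO and 2 rose and 3 fell in Het. Pdhb, a subunit of the first enzyme, fell from 79.1 ± 3.88 FPKM in WT to 55.6 ± 2.57 in Het and 38.9 ± 2.09 in KO (-1.01 ± 0.06 SE, adjusted p = 2.99e-07 in KO). Pdhx (-0.78) and Pdha1 (-0.36) fell and the phosphatase Pdp1 rose (0.78) in KO.

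Further HIF components and targets were mixed. Of 4 tested components, 2 rose and 1 fell in KO and none passed in Het. Cited2, which competes with HIF for its coactivator, rose in KO (0.84 ± 0.08 SE, adjusted p = 6.38e-06), as did the ARNT relative Arnt2 (0.70), and Hif1an, an asparagine hydroxylase that restrains HIF, fell (-0.36). Of 17 further tested hypoxia targets, 7 rose and 6 fell in KO, with a median of -0.02, and 7 rose and 4 fell in Het, with a median of 0.14. All genes tested were called in 47.1% of cases in KO and 43.8% in Het. Vegfa, the main vessel growth factor, went from 6.20 ± 0.953 FPKM in WT to 11.5 ± 0.489 in Het and 26.4 ± 1.65 in KO (SD) and rose in both (1.94 ± 0.10 SE, adjusted p = 8.22e-08 in KO and 0.80 ± 0.09 SE, adjusted p = 4.97e-05 in Het). Hmox1, the haem oxygenase, rose in KO (1.15), as did Bhlhe40, a transcriptional repressor (1.01), and the histone demethylase gene Kdm3a (0.91). The 6 that fell in KO were Car12 (-0.56), a carbonic anhydrase, Gbe1 (-0.50), the glycogen branching enzyme, Tfrc (-0.49), the transferrin receptor, Mxi1 (-0.49), a MYC antagonist, Higd1a (-0.48), a mitochondrial protein, and Plod2 (-0.45). In Het, Plod2, a collagen lysyl hydroxylase, fell from 45.6 ± 5.98 to 15.7 ± 0.725 FPKM (-1.47 ± 0.09 SE, adjusted p = 4.13e-07), while Vegfa and Kdm3a (0.79) rose. Car12, at 0.830, 2.36 and 0.245 FPKM in WT, Het and KO, reached 1 FPKM in 1 WT library, all Het libraries and no KO library, and so entered the test mainly through Het. Its calls in Het (0.88) and KO (-0.56) are descriptions. Ak4, among those that rose in KO and Het, averaged 0.748, 1.52 and 2.17 FPKM in WT, Het and KO. It was at most 0.867 FPKM in WT and entered the test through Het and KO. Its calls, and the counts and medians of this list, are thus descriptions.

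Summed over each list, levels were compared by range only. The 17 glycolytic enzymes summed to 2507 to 3416 FPKM in WT, 3360.0 to 3556 in Het and 3331 to 3721 in KO, with WT 4 overlapping both other groups. The 11 hypoxia targets summed to 183 to 208 FPKM in WT, 183 to 194 in Het and 224 to 243 in KO, where KO lay above all other libraries. The difference between the lists was not tested. Abundant genes weigh most in such sums, Pkm and Eno1 in the first and P4ha1, Bnip3l and Ndrg1 in the second. Of these, Bnip3l was at 37.2, 38.2 and 19.3 FPKM and Ndrg1 at 27.2, 31.1 and 54.5 FPKM in WT, Het and KO.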

How the data were processed

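The authors deposited one table of FPKM per library, with the ends of each estimate's interval, for 48892 loci. TopHat2 2.1.0, Cufflinks 2.2.1 and GRCm38.p4 are named, and Cuffdiff without a version, per the submitters' processing notes. The design text says that 1 further KO library failed quality control and was left out. The tables hold no counts, so no count model was used. The interval of a member at 1 FPKM or more had a median half-width of 7.89%, which covers estimation within a library only.

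Where loci share a symbol, their FPKM were added (Hk2 and Eno1 have 2 loci each). Each library was divided by its median-of-ratios factor (0.937 to 1.04, from 13981 genes), and printed FPKM are scaled. The 14948 genes that reached 1 FPKM in 3 or more libraries entered limma 3.58.1 (R 4.3.3) as log2(FPKM + 1). The model had a mean for each genotype, used all 11 libraries and allowed the variance to follow the mean. Adjustment over these genes was by the Benjamini-Hochberg method. "Rose" and "fell" mean an adjusted p under 0.05. The fit was tested on simulated data. Up to 10 genes per comparison with the largest called differences are given in every library, and up to 4 for each further list. The members and lists were chosen with earlier results of these data known. Alternatives covered scaling, pseudocount, filter, loci, gene class, spread, trend, a replicate block, each library left out and GC correction.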

Additional observations from a re-analysis of the deposited data

Results flagged for a closer look

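In 5 of 74 groups of 4 libraries examined, 1 library stood apart from the other 3 by more than Dixon's 95% critical value, and chance alone flags about 1 group in 20. Pfkp in WT 4 was at 27.4 FPKM, with the other WT libraries at 22.7 to 23.0. Ddit4 in WT 4 was at 13.7 FPKM beside 9.56 to 9.96. Bnip3 in WT 1 was at 12.0 FPKM beside 9.44 to 9.86. Car9 in WT 3 was at 0.554 FPKM beside 0.644 to 0.659. Egln3 in Het 2 was at 3.76 FPKM beside 3.10 to 3.19. Without the library concerned, each of these genes kept its direction and its side of the threshold in the comparisons tested.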

How the results depend on the processing

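The counts of called genes stayed within 1.5 times under the alternatives run. With 1 library left out at a time, 11 to 15 members were higher and 8 to 9 lower in KO against WT, and 10 to 13 and 7 to 9 in Het against WT. Over all genes in those fits, 2768 to 4004 were higher and 2981 to 3920 lower in KO. In Het the ranges were 2801 to 3648 and 2853 to 3662. Whether the replicate numbers pair libraries is unknown. Deviations of same-numbered libraries correlated from -0.101 to 0.352, with the pairs of number 4 at 0.254 to 0.352, so not every pair was above 0.1. With the replicate block, 13 members were higher and 9 lower in KO, and 12 and 9 in Het, and the calls of Bnip3 and Ankrd37 in KO and of Hk2 in Het were lost. With the GC correction, 17 were higher and 12 lower in KO. More of all genes were called in that fit as well, both higher and lower. The share of 47.1% from the fit without the correction is thus no background for these 2 counts. They are descriptions, and no excess over all genes is read from them. Sign changes against WT arose in differences that did not pass. With 1 library left out they ran as given here, and the libraries whose removal turned the sign stand in parentheses. The difference of Pfkl ran from -0.37 to 0.0019 in KO (WT 4), that of Pkm from -0.020 to 0.18 in KO (WT 1), that of Pdk3 from -0.0077 to 0.12 in KO (WT 4), and that of Pfkfb4 from -0.019 to 0.074 in KO (WT 1). The difference of P4ha2 ran from -0.019 to 0.060 in KO (WT 1), that of Eno1 from -0.036 to 0.19 in Het (WT 1), that of Pkm from -0.088 to 0.11 in Het (WT 1 and WT 3), and that of Ldhb from -0.12 to 0.00087 in Het (WT 3). The difference of Arnt ran from -0.031 to 0.034 in Het (Het 1, Het 3 and WT 4), that of Bnip3l from -0.023 to 0.093 in Het (WT 4), and that of Car9 from -0.039 to 0.022 in Het (Het 1 and WT 4). Without scaling they were Pkm -0.0062, Pdk3 -0.025, Pfkfb4 -0.059, Egln1 -0.0066, P4ha2 -0.068 in KO. With the GC correction they were Pkm -0.074, Pfkfb4 -0.066, Egln1 -0.033, P4ha2 -0.011 in KO and Pkm -0.062 in Het. With that correction and the replicate block they were Pkm -0.049, Pfkfb4 -0.048, Egln1 -0.021 in KO and Pkm -0.062 in Het. The causes were not tested. The midpoint comparison has no fit with only the groups compared, since it uses all 3. Genes that passed under some alternatives alone were Eno1, Hk1, P4ha1, Pfkl, Pgam1, Pgk1 and Tpi1 in KO and Hk1 and Pdk3 in Het. Against the midpoint, Aldoa lost its call under 11 alternatives, Eno2 under 5, Arnt under 2 and Epas1 and Pgam1 under 1 each. Depth limits Adm, Car9 and Epas1 most, at around 1 FPKM or below.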
